A study of Ovis aries and Mus musculus with 10 samples.

Results

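The mammary gland of pregnant sheep was compared with that of pregnant CD1 mice by the microRNA (miRNA) signals on 5 of the 10 arrays of a study of the adult gland. Sheep gland was taken at gestation days 14, 64 and 125 and gland of CD1, an outbred mouse strain, at gestation days 10 and 17, with 1 array for each day and no treatment. The days fall at different points of pregnancies of unequal length, so sheep and mouse are not matched for stage. The other 5 arrays, from sheep in the oestrous cycle (day 15) and at lactation day 60 and from virgin mice and mice at lactation days 2 and 10, are used below as a separate set. The labels do not say whether an array holds 1 animal or several, so the spread given for a species is that between its gestation days, and every p-value measures only the spread between these arrays. Mouse gestation day 10 was on slide 2, and the other 4 gestation arrays were on slide 1.

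Probes covered 567 mouse miRNAs, of which 261 gave a detected signal on at least 1 of the 5 gestation arrays and 120 on all 5. The sheep arrays at days 14, 64 and 125 detected 206, 208 and 156 miRNAs, and the mouse arrays at days 10 and 17 detected 156 and 198. A miRNA was tested where at least 2 of the 5 arrays detected it and at least 1 was above the floor, which left 167. Of the other 400, 306 were detected on no gestation array, 39 on 1 array, and 55 on 2 or more arrays but at the floor on all 5. Signals are given on the log2 scale relative to the 75th percentile of the 94 miRNAs that all 10 arrays detected, so 0 is the level of a bright miRNA and -5.11 is the floor below which values have no order. A difference is always sheep minus mouse on that scale. A miRNA is described as apart where all 3 sheep arrays lie above both mouse arrays, or all below, and as called where limma's adjusted p is under 0.05.

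MicroRNAs are short RNAs that lower the output of messenger RNAs by pairing through a seed near their 5′ end. MiRNAs with the same seed form a family with overlapping targets, and miRNAs that lie close together in the genome are often cut from 1 transcript. During pregnancy the mammary gland builds its lobules of secretory epithelium inside fat and connective tissue, so the miRNAs of a whole gland come from epithelial, stromal, fat, vessel and blood cells, and fewer cells of a type cannot be told apart from less of a miRNA per cell. All probes were designed for mouse miRNAs. A lower level in sheep therefore cannot be told apart from a poorer match of a sheep miRNA to its mouse probe, and signals of close family members may be shared between probes. The mature sequences were not used here.

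Some of the miRNAs that mark glandular epithelium were measured in both species, and others were at the floor in sheep and at or near it in mouse. MiR-200c, which represses the Zeb factors and keeps cells epithelial, read 0.42, -0.25 and 1.87 on the sheep arrays of days 14, 64 and 125 and -0.34 and 0.67 on the mouse arrays of days 10 and 17. MiR-205, a miRNA of basal mammary epithelium, read -1.11, -0.09 and -2.39 in sheep and -1.78 and -1.0 in mouse. The ranges of the species overlapped for both, and with differences of 0.51 ± 0.68 (SE, adjusted p = 0.619) and 0.19 ± 0.69 (SE, adjusted p = 0.835) neither passed limma's test. On the sheep arrays miR-203, a miRNA of skin-type epithelium, and miR-182 were at the floor at all 3 days. MiR-203 was nevertheless detected on 2 of the sheep arrays, and it read -4.52 and -4.27 in mouse. MiR-182 was detected on no sheep array, and in mouse it was at the floor at day 10 and read -4.20 at day 17.

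Of the 167 tested miRNAs, 75 (44.9%) were apart between the species, 32 (19.2%) higher and 43 (25.7%) lower in sheep. Limma called 37 (22.2%), of which 13 (7.78%) were higher and 24 (14.4%) lower in sheep. All 37 called miRNAs were apart, and for 33 of them the gap between the species was wider than the whole range of the sheep arrays. For 7 of the 33 every sheep array lay at the floor, so that the range was 0 and any gap was wider. The floor also shortened the range of others, such as miR-195, which was at the floor on 2 sheep arrays. Limma calls miRNAs whose difference is large beside the spread between arrays, so wide gaps among the calls are no separate support. The gap was wider than the ranges of both species for 35 of the 167 tested miRNAs, 30 of them called. The median difference over all tested miRNAs was 0.13, and the median size of a difference was 0.63, beside a median range of 0.74 among the sheep arrays and a median change of 0.35 between the mouse arrays. The smallest gap among miRNAs counted as apart was 0.06 (let-7e), and 0 was the largest among those that were not.

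How many miRNAs passed, and the balance of directions, depended on the processing and on single arrays. The authors' deposited table of values was tested with the same model, but with its own floor and without the scaling between arrays used here. It left 1 call, miR-195, at a difference of -5.17 (adjusted p = 0.0203), with 23 miRNAs at an unadjusted p under 0.05. The smaller number of calls with that table therefore cannot be separated from the change of scaling and floor. Calls numbered 18 without sheep day 14, 26 without day 64, 46 without day 125, 23 without mouse day 10 and 22 without mouse day 17. The share of calls that were higher in sheep was 35.1%, but 48.5% after quantile normalization and 65.6% with no scaling between arrays, which moved the median difference up by 0.80. Every one of the 37 kept its direction in each alternative that gave it a value, whereas 5 of the 43 miRNAs apart below changed direction under another scaling. Among the 37, 14 kept the call whichever of the 5 gestation arrays was left out. Among these 14, no scaling ended the calls of let-7c, miR-342-3p and miR-10a, no detection filter those of miR-342-3p, miR-10a, miR-361 and miR-142-3p, and normexp background correction those of miR-223, miR-342-3p, miR-10a and miR-361. Slide was added as a term to an additive model of species and stage class, not to the model behind the 37 calls. The additive model gave 60 calls, of which 35 were among the 37. With slide as a term the calls numbered 48, of which 29 were among the 37. Slide 1 alone left 1 mouse gestation array, and there the median difference was 0.07.

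**Figure D1:**
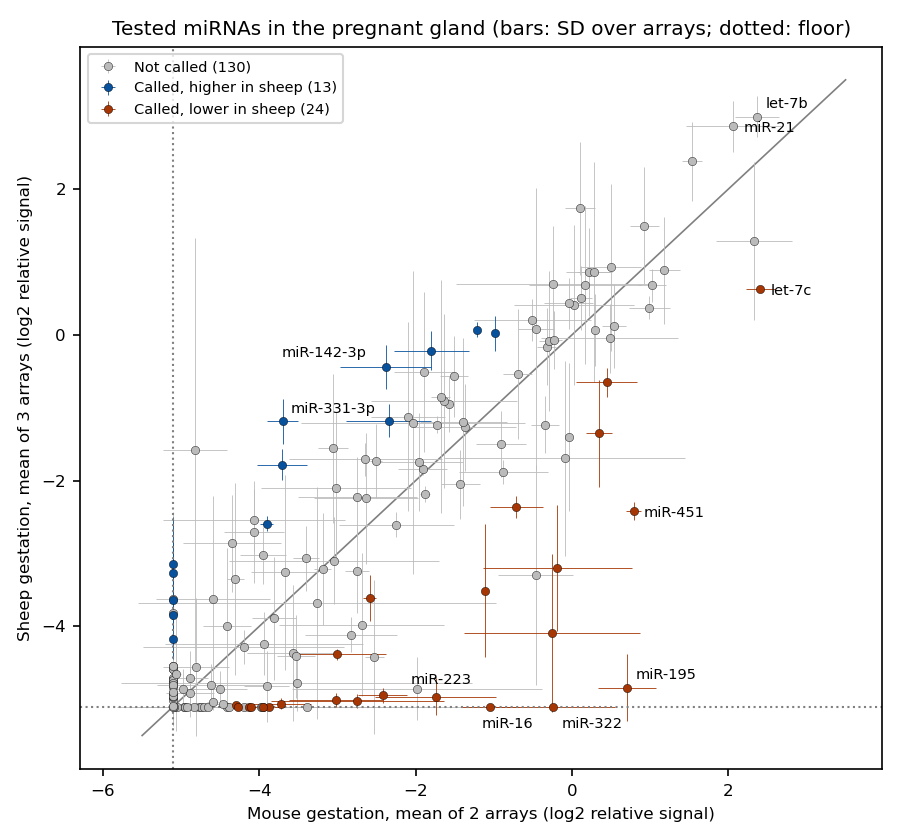
Mean signal of the 167 tested miRNAs on the 3 sheep gestation arrays (vertical axis) against the 2 mouse gestation arrays (horizontal axis), both log2 relative to the 75th percentile of shared miRNAs, with bars for 1 SD over arrays. Blue points are the 13 called higher and orange points the 24 called lower in sheep, the line marks equal signal and the dotted lines the floor, on which miR-16 and miR-322 lie in sheep.

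Both species shared part of their brightest signals. On all 5 arrays, 7 miRNAs were among the 20 brightest: let-7a, let-7b, let-7c, miR-21, miR-125b-5p, miR-126-3p and miR-720. Together the 7 made up 36.1%, 32.7% and 36.4% of the summed signal on the sheep arrays of days 14, 64 and 125, and 35.3% and 32.5% on the mouse arrays of days 10 and 17. Within sheep 9 miRNAs and within mouse 13 miRNAs kept a place among the 20 brightest on every array of the species. A signal depends on the probe as well as on the RNA, so these ranks order signals and not amounts.

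Let-7b, a member of the let-7 family that marks differentiated tissue, ranked between 1 and 3 on every array. It read 2.67, 3.14 and 3.18 in sheep and 2.56 and 2.17 in mouse, so the lowest sheep array stood just above the higher mouse array, and the difference of 0.63 ± 0.24 was not called (adjusted p = 0.135). MiR-21, an abundant miRNA of epithelium and stroma, ranked between 1 and 4 and read 3.26, 2.59 and 2.74 in sheep and 2.50 and 1.63 in mouse. The sheep arrays were again above both mouse arrays without a call (0.80 ± 0.37, adjusted p = 0.192). Let-7a read 2.20, 1.95 and 2.99 in sheep and 1.44 and 1.63 in mouse, apart at 0.85 ± 0.34 (adjusted p = 0.144).

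For 3 of the 7 the species overlapped. MiR-126-3p, the endothelial miRNA cut from an intron of Egfl7, read 0.55, 0.94 and 0.55 in sheep and 1.14 and 0.89 in mouse. MiR-125b-5p, a vertebrate counterpart of worm lin-4, ranged more widely in sheep, at 1.66, 2.21 and 0.62, than in mouse, at 1.06 and 0.79. MiR-720, which is carried on this array as a miRNA and was later described as a fragment of a transfer RNA, read 0.78, 0.56 and 2.54 in sheep and 1.98 and 2.68 in mouse. Its sheep arrays spanned 1.98, and that of day 125 lay within the mouse values. Differences of these miRNAs lay between -1.04 ± 0.65 (miR-720, adjusted p = 0.319) and 0.57 ± 0.51 (miR-125b-5p, adjusted p = 0.471).

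Let-7c was the exception among the brightest 7. It read 0.59, 0.66 and 0.65 in sheep and 2.54 and 2.28 in mouse, and so ranked 10, 12 and 13 on the sheep arrays and second on both mouse arrays. The 3 sheep values lay within 0.07 of each other and 1.62 below the nearer mouse array. The difference was -1.78 ± 0.18 or 3.43-fold (adjusted p = 0.00284), and its call held without any of the 5 gestation arrays. With no scaling between arrays it was -1.0 and not called (adjusted p = 0.156).

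**Figure D2:**
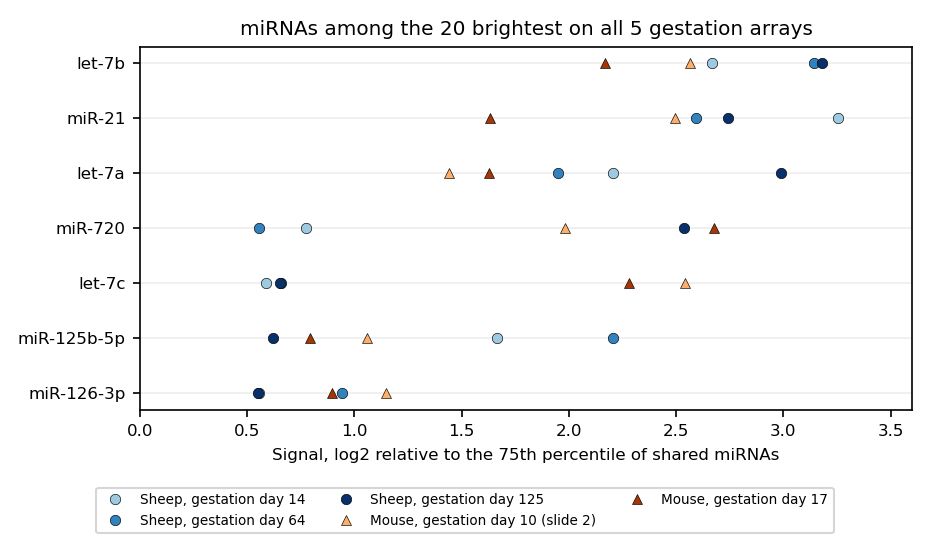
Signal of the 7 miRNAs that were among the 20 brightest on all 5 gestation arrays, in log2 relative to the 75th percentile of shared miRNAs, with 1 point per array (blue circles sheep, orange triangles mouse). Let-7c stands between 0.59 and 0.66 in sheep and at 2.28 and 2.54 in mouse, whereas the points of miR-126-3p, miR-125b-5p and miR-720 interleave.

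Several bright miRNAs differed little. Among the 50 brightest tested miRNAs, the 5 smallest differences were those of miR-143 (0.10 ± 0.44), miR-15a (0.16 ± 0.34), miR-92a (0.16 ± 0.56), miR-23a (0.16 ± 0.27) and miR-205. MiR-143, a miRNA of smooth muscle and fibroblasts, read -1.09, -0.79 and -1.93 in sheep and -1.83 and -0.91 in mouse. MiR-92a, of the miR-17-92 cluster that accompanies proliferation, read -0.86, -1.23 and 0.48 in sheep and -0.82 and -0.56 in mouse. Standard errors of this size leave room for differences in either direction, so equal levels were not shown.

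The miRNAs called lower in sheep were led by members of the miR-15/16 family, whose shared seed targets cyclins and other drivers of the cell cycle. MiR-195 read -5.11, -4.31 and -5.11 in sheep, which is at the floor on days 14 and 125, and 0.96 and 0.44 in mouse. All 3 sheep arrays detected it, and 2 had it well above background. It was among the brighter signals of the mouse gland and near the limit of the scale in sheep, a difference of -5.54 ± 0.34 (adjusted p = 0.00105). MiR-322, the mouse counterpart of human miR-424 and part of a locus studied in mammary involution, was at the floor at all 3 sheep days, although each array detected it, and read 0.32 and -0.80 in mouse (-4.87 ± 0.45, adjusted p = 0.00229).

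MiR-16 was not detected and not well above background on any sheep array, and read -1.31 and -0.79 in mouse. Its signal was at least 16.7-fold higher in mouse, as the mouse mean of -1.05 against the sheep mean at the floor of -5.11 gives (adjusted p = 0.00205). The fitted sizes of these differences rest on the floor. With a floor 4 times lower, miR-195 differed by -6.18, miR-322 by -5.66 and miR-16 by -6.06, and with a normexp background correction by -2.73, -1.86 and -1.18. Calls of miR-195 and miR-322 held without any of the 5 arrays, and that of miR-16 held without each sheep array, while leaving out either mouse array left it detected on too few arrays to be tested. With the authors' deposited table miR-322 and miR-16 were not called (adjusted p = 0.0682 for both).

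Other members of the same seed family were not called. MiR-15a read -0.19, -0.67 and 0.38 in sheep and -0.41 and -0.24 in mouse, a difference of 0.16 ± 0.34 (adjusted p = 0.723). MiR-497 read 0.04, 0.73 and -0.42 in sheep and 0.64 and 0.42 in mouse, also overlapping (-0.41 ± 0.40, adjusted p = 0.496). MiR-15b read -1.51, -2.35 and -0.33 in sheep and -0.01 and -0.05 in mouse, so it was apart but not called (-1.37 ± 0.59, adjusted p = 0.174). MiR-503 was at the floor on 4 of the 5 arrays, so its difference could not be measured there. With a floor 4 times lower it differed by -1.81 (limma, adjusted p = 0.0168). In all, 7 of 7 members on the array were tested, 3 were called lower, beside 14.4% of all tested miRNAs, and none higher, and the median difference was -1.37.

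Of the let-7 family 9 of 9 members were tested, and 2 were called lower and none higher, which is near the 22.2% called among all tested miRNAs. Above, 2 were apart (19.2% of all tested), and below, 4 (25.7% of all tested), of which 2 turned with no scaling, with a median difference of -0.29. Let-7d, like let-7c, was called lower in sheep. It read -1.46, -2.03 and -0.57 in sheep and 0.46 and 0.23 in mouse (-1.70 ± 0.43, adjusted p = 0.0443). That call was lost without sheep day 14 (adjusted p = 0.129), without day 64 (0.0686), without mouse day 10 (0.199) and without mouse day 17 (0.161). Let-7i was apart below (-0.62 ± 0.21, adjusted p = 0.0849), as was let-7e (-0.59 ± 0.31, adjusted p = 0.254), but with no scaling both turned to the other direction, at 0.16 and 0.19. Let-7f, let-7g and miR-98 overlapped. Let-7a and let-7b, the brightest members, were apart in the other direction.

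**Figure D3:**
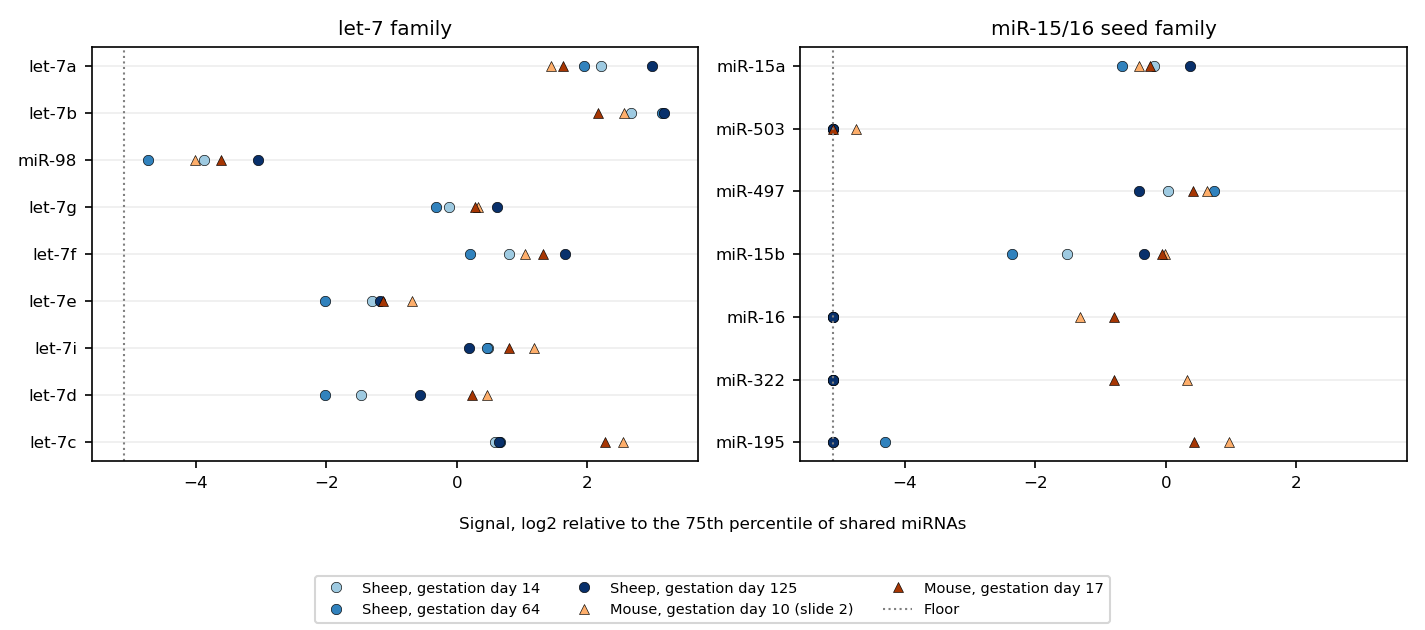
Signal of each let-7 member (left) and each miR-15/16 member (right) on the 5 gestation arrays, in log2 relative to the 75th percentile of shared miRNAs, with 1 point per array (blue circles sheep, orange triangles mouse) and the floor dotted. MiR-195, miR-322 and miR-16 lie at or near the floor of -5.11 in sheep and between -1.31 and 0.96 in mouse, while miR-15a and miR-497 of the same family overlap between species.

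MiRNAs of blood cells moved in both directions. MiR-451, the miRNA of developing red cells that is made without Dicer, read -2.52, -2.45 and -2.28 in sheep and 0.85 and 0.72 in mouse. The sheep arrays were within 0.24 of each other and 3.00 below the nearer mouse array, a difference of -3.20 ± 0.23 or 9.20-fold (adjusted p = 0.00138). Its partner miR-144 was at the floor on 4 arrays and read -4.38 at mouse day 17. The miR-451 call held without any of the 5 arrays but not with the authors' deposited table (-3.16, adjusted p = 0.146).

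MiR-223, a miRNA of neutrophils and other myeloid cells, read -5.11, -5.11 and -4.68 in sheep and -1.20 and -2.29 in mouse (-3.22 ± 0.38, adjusted p = 0.00415). MiR-342-3p, abundant in lymphoid cells, read -4.83, -5.0 and -5.01 in sheep and -2.20 and -2.64 in mouse (-2.53 ± 0.34, adjusted p = 0.0058). MiR-142-3p, which is present in nearly all white cells, went the other way, at -0.10, -0.63 and -0.60 in sheep and -2.80 and -1.97 in mouse (1.94 ± 0.32, adjusted p = 0.0112). Each of these 3 calls held without any of the 5 arrays. With normexp correction miR-223 and miR-342-3p were not called (adjusted p = 0.253 and 0.435). With slide as a term the pooled difference of miR-142-3p was 0.85 and not called (adjusted p = 0.116), beside 1.51 in the additive model.

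Over the whole list of leukocyte and lymphoid miRNAs, 8 of 9 were tested, 1 was called higher (7.78% of all tested) and 2 lower (14.4% of all tested), 3 were apart in each direction (19.2% above and 25.7% below of all tested), and the median difference was 0.12. The mean level of the list was -3.82, -3.75 and -3.89 in sheep and -3.77 and -3.54 in mouse. MiR-150, a marker of mature lymphocytes, was at the floor on both mouse arrays and on sheep day 125 and read -4.77 and -3.90 on sheep days 14 and 64. The part of blood cells in these differences was not tested.

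Other called miRNAs that were lower in sheep belonged to several groups. MiR-10a, which lies in a Hox gene cluster, read -5.0, -4.93 and -5.11 in sheep and -2.59 and -3.45 in mouse (-1.99 ± 0.32, adjusted p = 0.0105), and its call held without any of the 5 arrays but not with normexp correction (-0.07, adjusted p = 0.694). MiR-196a, of the same clusters, read -4.92, -5.05 and -5.11 in sheep and -1.97 and -3.53 in mouse (-2.28 ± 0.50, adjusted p = 0.0269). Without sheep day 14 or sheep day 64 its call was lost, at adjusted p-values of 0.0800 and 0.0764. Without mouse day 10 the call was lost as well, and the difference was -1.49. With slide as a term its pooled difference was -0.87 (adjusted p = 0.186), beside -1.50 in the additive model. Of the 4 Hox-cluster miRNAs, all tested, 3 were apart below (25.7% of all tested) and 2 called lower (14.4% of all tested). The third, miR-10b, turned to the other direction with quantile normalization (0.03) and with no scaling (0.47).

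Among miRNAs associated with fat cells, miR-193b, which with miR-365 has been studied in brown fat, read -3.38, -2.67 and -4.47 in sheep and -1.09 and -1.13 in mouse (-2.40 ± 0.52, adjusted p = 0.0259). MiR-365 read -4.41, -4.45 and -4.30 in sheep and -3.44 and -2.56 in mouse (-1.38 ± 0.28, adjusted p = 0.0236). Both mouse values stood above all sheep values for each. Without sheep day 14 neither was called (adjusted p = 0.0753 and 0.0825), and leaving out mouse day 10 ended the call of miR-193b (0.132), sheep day 64 that of miR-365 (0.0632) and mouse day 17 both (0.132 and 0.0598). Of 6 tested members of the list, 4 were apart below (25.7% of all tested), 1 was apart above (19.2% of all tested), and the median difference was -1.14.

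MiR-709 and miR-199b* also belonged to the 12 largest differences below. MiR-709 read -4.22, -2.95 and -5.11 in sheep and 0.54 and -1.05 in mouse (-3.84 ± 0.75, adjusted p = 0.0198), with 2 of the 3 sheep arrays well above background. MiR-199b*, of a fibroblast-rich miRNA locus, read -2.61, -2.81 and -4.19 in sheep and 0.49 and -0.86 in mouse (-3.02 ± 0.64, adjusted p = 0.0254). Both spread widely between days within each species. Neither was called without sheep day 14 (0.0665 and 0.0503) or mouse day 10 (0.114 and 0.139), nor was miR-199b* without sheep day 64 (0.0557).

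The remaining 10 miRNAs called lower had differences between -1.65 (miR-130a) and -0.79 (miR-139-5p). Among them, miR-22 was bright in both species, at -0.60, -0.88 and -0.48 in sheep and 0.72 and 0.17 in mouse (-1.10 ± 0.24, adjusted p = 0.0269). MiR-183, of a cluster known from sensory and other epithelia, was -5.11, -5.11 and -4.97 in sheep and -3.99 and -3.45 in mouse (-1.34 ± 0.22, adjusted p = 0.0105). Without sheep day 14 neither was called (adjusted p = 0.0912 and 0.0546), and miR-22 was also not called without sheep day 64 (0.0662) or mouse day 10 (0.114). With slide as a term miR-22 differed by -0.48 (adjusted p = 0.261) and miR-350 by -0.47 (adjusted p = 0.136). In the additive model without slide these pooled differences were -1.02 and -0.78. For miR-500, miR-690, miR-350, miR-345-5p and miR-362-3p no sheep array was well above background, and the mouse signal was at least 2.35-fold, 2.22-fold, 1.99-fold, 1.96-fold and 1.78-fold higher. These bounds hold only for the scaling, probe averaging and floor used. With the brightest probe alone the differences were smaller, at -0.93, -0.21, -0.71, -0.71 and -0.41. With a floor 4 times lower they were larger, from -3.23 (miR-500) to -2.68 (miR-345-5p). Of all 24 miRNAs called lower, 7 lay at the floor on every sheep array and 10 were above it on all 5 arrays.

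**Figure D4:**
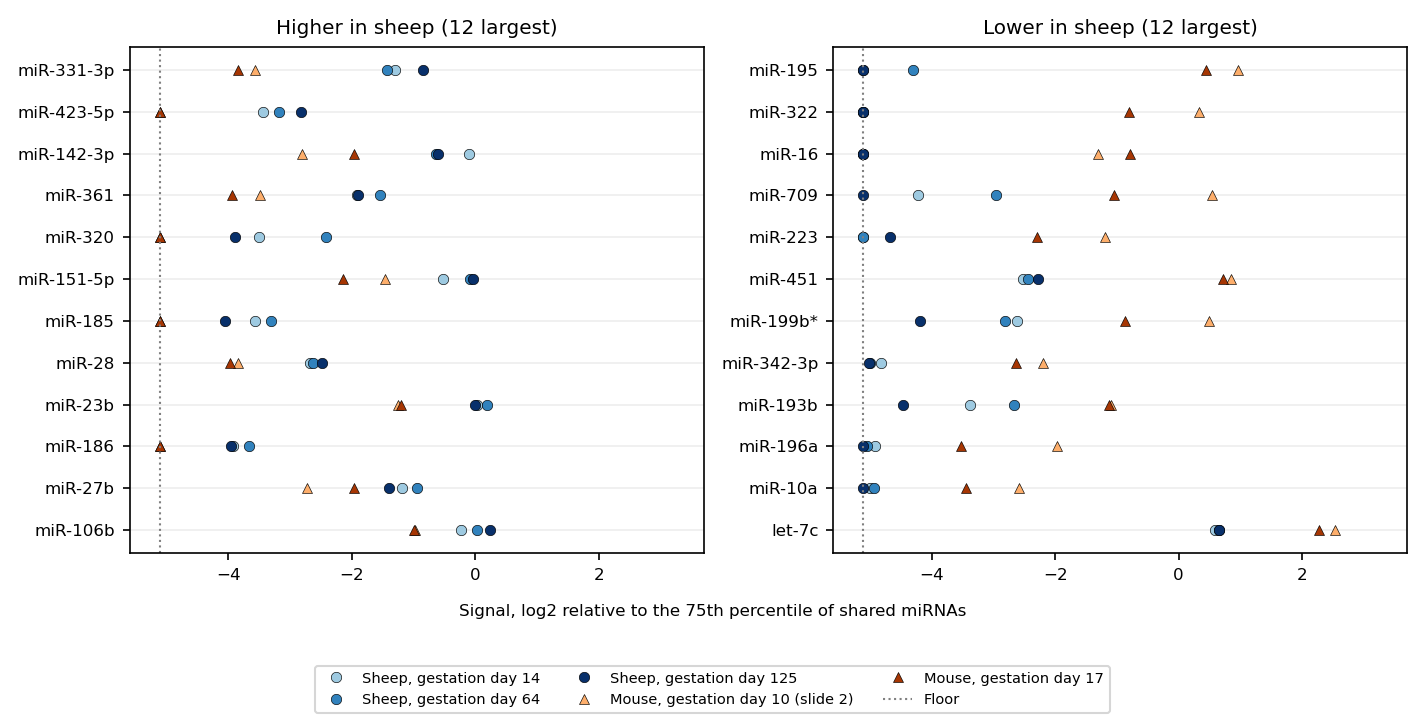
Signal on each gestation array of the 12 called miRNAs with the largest differences above (left) and below (right), in log2 relative to the 75th percentile of shared miRNAs, with sheep as blue circles, mouse as orange triangles and the floor dotted. The clusters of sheep and mouse points do not overlap for any of the 24, and the gap is narrowest for miR-27b (0.57) and widest for miR-195 (4.75).

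The miRNAs called higher in sheep had smaller differences, from 0.93 to 2.51. MiR-331-3p led them, at -1.30, -1.42 and -0.84 in sheep and -3.56 and -3.84 in mouse. Its lowest sheep array stood 2.14 above the higher mouse array, a difference of 2.51 ± 0.28 or 5.71-fold (adjusted p = 0.0041), and 0.98 with normexp correction (adjusted p = 0.024). MiR-423-5p read -3.43, -3.18 and -2.82 in sheep and lay at the floor on both mouse arrays, each of which detected it (1.96 ± 0.22, adjusted p = 0.0041). MiR-361 read -1.92, -1.54 and -1.89 in sheep and -3.48 and -3.94 in mouse (1.93 ± 0.27, adjusted p = 0.0061).

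MiR-23b and miR-27b, which are cut from 1 transcript with miR-24, were both higher in sheep. MiR-23b read 0.03, 0.19 and -0.01 in sheep and -1.25 and -1.20 in mouse, with 0.20 between the sheep arrays and 1.29 ± 0.18 between the species (adjusted p = 0.0058). MiR-27b read -1.18, -0.95 and -1.40 in sheep and -2.73 and -1.97 in mouse (1.17 ± 0.31, adjusted p = 0.0496). MiR-24 differed by 0.47 ± 0.27 and was not called (adjusted p = 0.281). The miR-27b call was lost without sheep day 14 (adjusted p = 0.142), sheep day 64 (0.118) or mouse day 10 (0.199), and with slide as a term (0.66, adjusted p = 0.0632).

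MiR-28, from an intron of Lpp, read -2.68, -2.63 and -2.48 in sheep and -3.85 and -3.97 in mouse (1.31 ± 0.16, adjusted p = 0.00496). MiR-186 was detected on all 3 sheep arrays, at -3.92, -3.67 and -3.95, and not well above background on either mouse array, which makes it at least 2.4-fold higher in sheep (mean -3.85 against the floor, adjusted p = 0.0058). Calls of miR-331-3p, miR-423-5p, miR-361, miR-23b, miR-28 and miR-186 held without any of the 5 arrays, and each was lost with the authors' deposited table, at adjusted p-values from 0.179 to 0.580.

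MiR-151-5p, from an intron of the focal adhesion kinase gene Ptk2, read -0.52, -0.09 and -0.04 in sheep and -1.46 and -2.14 in mouse (1.58 ± 0.31, adjusted p = 0.0198). MiR-320, which is made without Drosha, read -3.51, -2.41 and -3.89 in sheep and lay at the floor on both mouse arrays (1.84 ± 0.45, adjusted p = 0.0391). MiR-185 read -3.57, -3.31 and -4.05 in sheep and lay at the floor on both mouse arrays (1.47 ± 0.25, adjusted p = 0.0126). MiR-106b, from an intron of the replication gene Mcm7, read -0.22, 0.04 and 0.25 in sheep and -0.98 and -1.0 in mouse (1.01 ± 0.24, adjusted p = 0.0347). MiR-320 and miR-185 were each well above background on 1 of the 2 mouse arrays. These 4 calls, and that of miR-532-5p (0.93 ± 0.21, adjusted p = 0.0269), depended on single arrays. Without mouse day 17, miR-151-5p, miR-320, miR-185, miR-106b and miR-532-5p had adjusted p-values of 0.108, 0.161, 0.0696, 0.161 and 0.146. Without mouse day 10, all but miR-151-5p lost the call (0.0672 to 0.169), and without sheep day 14, miR-320, miR-185 and miR-106b did (0.0868, 0.0586 and 0.0739). Without sheep day 64, miR-151-5p, miR-532-5p and miR-106b did (0.0557, 0.0557 and 0.0805), and without day 125 miR-106b did (0.0530). With slide as a term miR-106b differed by 0.73 (adjusted p = 0.0679) and miR-532-5p by 0.49 (adjusted p = 0.216). In the additive model without slide these pooled differences were 0.86 and 0.64.

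All 37 called miRNAs had at least 2 probes. Among those called higher, 12 of 13 had every probe higher on average in sheep, and among those called lower 19 of 24 had every probe lower. No probe of the others pointed the opposite way. The probes of a miRNA share 1 end and differ in target length by a base or more, so they can share a mismatch to the sheep miRNA. RefSeq's annotation of the sheep assembly ARS-UI_Ramb_v3.0 named 106 miRNA genes, and 52 of the 167 tested miRNAs had a gene of the same name there. Of the 37 called, 8 had one, 2 called higher and 6 called lower.

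Some neighbours in the mouse genome parted. By the probe target positions given for mouse build mm9, 75 tested miRNAs fell into 27 clusters with at most 10 kb between neighbours. Within a cluster the median spread of the differences was 1.36, and the widest was 5.20. Of the 27 clusters, 12 held a called miRNA and 0 had every tested member called. These counts are per cluster, so the 22.2% called among single tested miRNAs is not a baseline for them. The spread among miRNAs that are not neighbours was not taken. Whether neighbours part more or less than other miRNAs was therefore not tested. Gene models of that build were not used here, and where a miRNA has several genomic copies the files give 1 position.

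MiR-195 (chromosome 11, 70048566 to 70048584) and miR-497 (70048234 to 70048253) lie next to each other and differed by -5.54 and -0.41 between the species. MiR-16 (chromosome 14, 62250773 to 62250790) and miR-15a (62250912 to 62250933) differed by -4.06 and 0.16. On the X chromosome, miR-322 (50407483 to 50407504) differed by -4.87, whereas miR-503 (50407204 to 50407219) was at the floor in sheep and at mouse day 17 and gave -0.18. In each of these pairs 1 miRNA was called and the other was not. MiR-497 and miR-15a overlapped between species, whereas miR-503 tied at the floor, where a difference could not be measured. With a floor 4 times lower miR-503 differed by -1.81 (limma, adjusted p = 0.0168), in the direction of miR-322.

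A pair of let-7 clusters parted as well. Let-7c (chromosome 15, 85537049 to 85537067) was called lower at -1.78 and let-7b (85537758 to 85537776) was apart above at 0.63. Let-7d (chromosome 13, 48631447 to 48631465), let-7f (48633258 to 48633278) and let-7a (48633608 to 48633627) differed by -1.70, -0.29 and 0.85. In 1 cluster, on the X chromosome, calls went in opposite directions, with miR-500 (-1.23 ± 0.17, adjusted p = 0.0058) and miR-362-3p (-0.83 ± 0.15, adjusted p = 0.0156) lower and miR-532-5p higher in sheep. MiR-142-3p and miR-142-5p, the 2 arms of 1 hairpin on chromosome 11, were both apart above, at 1.94 and 1.49 ± 0.41 (miR-142-5p, adjusted p = 0.0534). In 4 of the 27 clusters, members were apart in opposite directions.

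**Figure D5:**
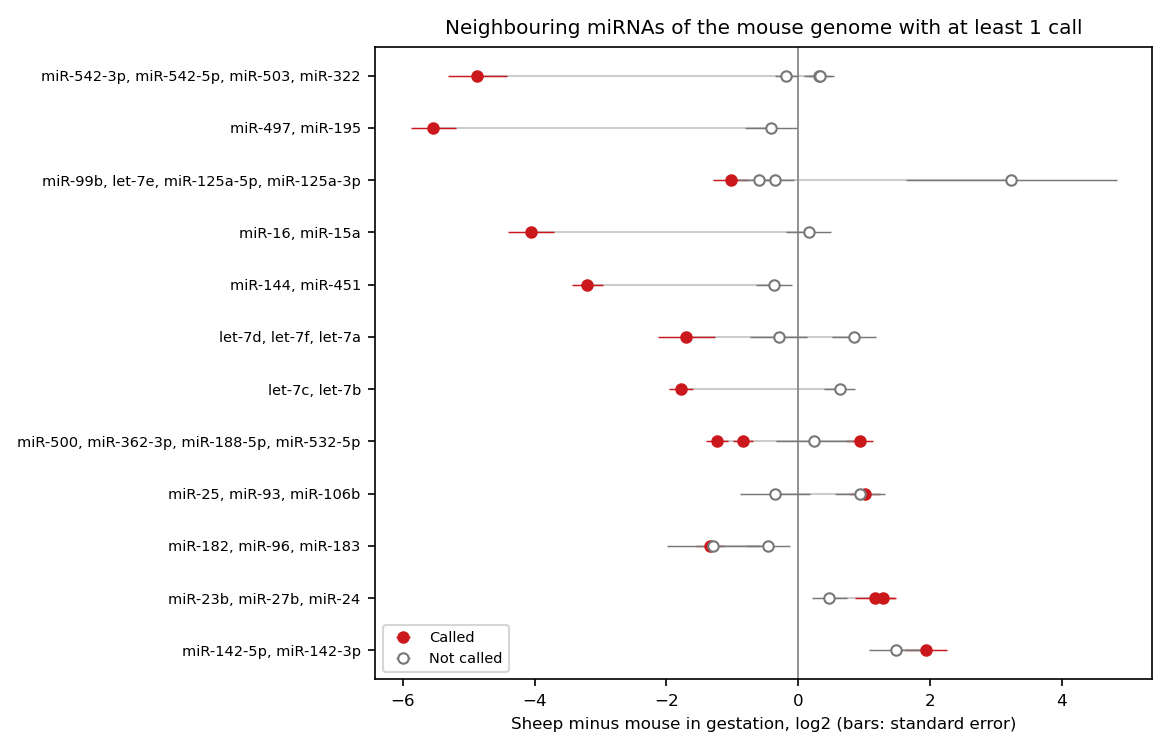
Difference of sheep minus mouse in gestation (horizontal axis, log2, bars for the standard error) for each tested miRNA of the 12 mm9 clusters that hold a call, with clusters in rows in order of their spread. Red filled points are called and open grey points are not. The clusters of miR-322, miR-195, miR-16 and miR-451 each hold 1 call far below its neighbours. The miR-23b and miR-142 rows lie wholly above 0. The neighbours of miR-322 and miR-451 were at or near the floor, which limits their differences. With a floor 4 times lower miR-144 differed by -2.25, miR-503 by -1.81 and miR-542-5p by 2.33.

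The lists of epithelial miRNAs held 1 call, beside 22.2% called among all tested miRNAs. Of the 5 members of the miR-200 family, all tested, 0 were called and 4 overlapped between species, with differences from 0.39 ± 0.71 (miR-200b) to 0.94 ± 0.66 (miR-141). MiR-429, which shares a transcript with miR-200a and miR-200b, read -3.42, -4.74 and -1.73 in sheep and -0.80 and -0.13 in mouse, apart at -2.83 ± 0.88 but not called (adjusted p = 0.0729). All 5 members were highest in sheep at day 125, and in mouse each was higher at day 17 than at day 10, with 1 array for each day. Of 6 other tested epithelial miRNAs, 1 was called (miR-183) and 2 were apart, both below (25.7% of all tested), with a median of -0.59.

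No miRNA of the miR-29 or miR-30 family was called. MiR-29a, b and c, which restrain collagens and DNA methyltransferases, differed by 0.43 ± 0.72, 0.83 ± 0.92 and 1.39 ± 0.66, and were lower on the sheep array of day 125 (-0.36, -2.69 and -1.75) than on those of days 14 (1.31, -0.09 and -0.12) and 64 (1.83, 0.23 and 0.34). In the miR-30 family 2 members were apart above, miR-30b and miR-30d, and 1 below, miR-30c (-1.0 ± 0.28, adjusted p = 0.0537). Of 9 tested miRNAs of miR-17-92 and its paralogous clusters, 1 was called (miR-106b) and 3 were apart, all above, with a median of 0.39. Among 21 tested miRNAs known as abundant in milk, 2 were called higher (miR-27b and miR-186) and 1 lower (miR-22), 9 were apart above and 2 below, and the median was 0.63. Over all tested miRNAs these shares were 7.78% called higher, 14.4% called lower, 19.2% apart above and 25.7% apart below.

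MiR-148a, a prominent milk miRNA that targets the DNA methyltransferase Dnmt1, varied between days within each species. It read -2.14, -2.75 and -0.19 in sheep and -1.18 and 0.99 in mouse (-1.60 ± 0.95, adjusted p = 0.296). The latest array of each species was its highest, and the species overlapped. MiR-26a was apart above at 1.63 ± 0.53 (adjusted p = 0.08) and miR-146b apart below at -2.87 ± 0.79 (adjusted p = 0.0537). Both were singled out here after their values were seen. Among the 38 miRNAs that were apart but not called, miR-26a had the largest difference above and miR-146b the largest below.

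Markers of other tissue differed between arrays. The striated muscle list, of which 4 of 7 were tested, had mean levels of -5.05, -4.92 and -5.11 in sheep, -5.11 at mouse day 10 and -2.85 at mouse day 17, so that its median difference of -1.21 rested on 1 array. There miR-1 read -1.66 and miR-133a -2.80, and both were at the floor on the other 4 arrays. Without that array 22 miRNAs were called, 20 of them among the 37. Red cell markers (2 of 3 tested) averaged -3.82, -3.78 and -3.69 in sheep and -2.13 and -1.83 in mouse, and their part in the miR-451 difference was not tested.

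Endothelial miRNAs (4 of 5 tested) averaged from -3.69 to -3.38 in sheep and -3.33 and -3.31 in mouse, with a median difference of -0.18 and 1 call, miR-139-5p (-0.79 ± 0.21, adjusted p = 0.0496), which was lost whichever gestation array was left out, at adjusted p-values from 0.0747 to 0.178. With slide as a term miR-139-5p differed by -0.0045 (adjusted p = 0.997), and in the additive model it was -0.19 (adjusted p = 0.558). Fibroblast and smooth muscle miRNAs (9 of 9 tested) had a median of -0.06 with 1 call, miR-22. Beside the calls of each list in this paragraph, 22.2% of all tested miRNAs were called, 14.4% of them as lower in sheep. Liver miRNAs (4 of 6 tested) had a median of 0.03 and neural miRNAs 1 tested member of 9, without a call in either. Of the imprinted Dlk1-Dio3 cluster 11 of 49 miRNAs were tested, 3 were apart above (19.2% of all tested) and none was called, with a median of 0.37. Of 21 miRNAs in an intron of Sfmbt2, a rodent expansion, 4 were detected on any gestation array and 0 could be tested. In the miR-99/100 and miR-125 families all 5 were tested, and 1 was called, miR-125a-5p (-1.02 ± 0.26, adjusted p = 0.045), whose call was lost whichever gestation array was left out (0.0530 to 0.178).

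Whether the gestation differences were also seen outside gestation was examined on the other 5 arrays. These were not in the contrast itself, but they entered the scaling, the floor and, through the mouse lactation pair, the estimate of spread behind the 37 calls, of which 25 were made from the gestation arrays alone. Among the 167 miRNAs, 63 (37.7%) were apart between sheep and mouse there, 33 (19.8%) above and 30 (18%) below. Of the 13 called higher in gestation, 11 (84.6%) were apart above on the other arrays, and of the 24 called lower, 16 (66.7%) were apart below. None was apart in the opposite direction. Fitted alone, the other 5 arrays gave 17 calls (10.2%), 9 (5.39%) above and 8 (4.79%) below, and these included 5 of the 13 and 6 of the 24.

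Outside gestation, miR-195 read -5.07 (cycle) and -5.11 (lactation) in sheep, and 0.47, -0.72 and -1.10 in virgin mice and at lactation days 2 and 10. MiR-16 was at the floor in both sheep and between -1.72 and -0.70 in the 3 mouse arrays. MiR-331-3p read -1.27 and -1.67 in sheep and -3.91, -4.32 and -4.91 in mouse. The sheep array in cycle departed from the gestation pattern for miR-223, at -2.80 against -2.58 and -2.98 in lactating mice, and the sheep lactation array for miR-142-3p, at -2.32 against -2.25 at mouse lactation day 2, so neither was apart there.

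When limma tested whether the sheep minus mouse difference in gestation differed from that in lactation or from that in animals that were not pregnant, 0 of 167 miRNAs passed in either test. The smallest adjusted p-values were 0.304 and 0.0906, and 9 and 10 miRNAs had an unadjusted p under 0.05. The 0.0906 was that of miR-206, of the striated muscle list. It read -3.11 on the virgin mouse array and was at or near the floor on all the others. The virgin array also read -0.73 for miR-1, -0.97 for miR-133a and -0.50 for miR-133b. Outside gestation, sheep were represented by 1 array in each of the tests, and so were mice that were not pregnant, by the virgin array on slide 2. The tests do not show that the differences were alike in and outside gestation.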

How the data were processed

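Total RNA (100 ng per array, RNA integrity number of at least 6, per the labels' protocols) was labelled with Cy3 and hybridised to Agilent arrays of 12493 spots, 11340 of them for mouse miRNAs with a median of 20 spots each. The deposited scanner files hold intensity in arbitrary units, background-subtracted by Agilent Feature Extraction (10.5.1.1 per the file headers, 9.5 per the submitters' processing notes) and not normalized between arrays, with other columns, per the file headers, flagging detection and background as 0 or 1. The authors also deposited a table of intensity values, which equalled the total signal per miRNA times 1 constant per array, whose basis, and with it scale and centring, stays unknown. Its medians were 0.303, 0.26 and -3.94 for sheep days 14, 64 and 125 and -5.23 and 0.76 for mouse days 10 and 17. That table was tested with its own floor and was not rescaled between arrays.

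Outlier spots were dropped, spots averaged per probe and probes per miRNA. Each array was scaled to its 75th percentile over the 94 miRNAs that all 10 arrays detected, then floored at 0.029, the highest of the arrays' 5th percentiles of detected miRNAs, then put on the log2 scale. Where no array of a group was well above background, a fold is the mean of the brighter group over that floor. It is a lower bound only under this scaling, probe averaging and floor. No spot was saturated. Limma 3.58.1 in R 4.3.3 (lmFit, eBayes) fitted 6 means, 1 per species and stage class, to all 10 arrays, with 4 residual degrees of freedom. Benjamini-Hochberg adjustment ran over the 167 miRNAs, at a threshold of 0.05, and the steps were tested on simulated data. The number of arrays limits the precision.

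The members and lists were chosen with earlier results of these data known. Named miRNAs were the 12 largest called differences in each direction, the shared brightest, list members that were called, all tested members of the small families and cell type lists, and the 5 smallest differences among the 50 brightest. Lists came from general knowledge and share members. MiRNA names are those of the array's design. The alternatives covered scaling, background, floor, filter, model, slide and single arrays.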

Additional observations from a re-analysis of the deposited data

Results flagged for a closer look

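MiR-193 stood out because the species differed one way in gestation and the other way outside it. In gestation it read -1.20, -0.51 and -1.15 on the sheep arrays of days 14, 64 and 125 and -1.61 and -1.53 on the mouse arrays of days 10 and 17, a difference of 0.62 with every sheep array above every mouse array (limma, adjusted p = 0.168). On the other 5 arrays it read -1.41 and -1.57 in sheep and -1.37, -1.30 and -1.06 in mouse, a difference of -0.25 with every sheep array below (adjusted p = 0.366). By limma's test of the change itself, the gestation difference exceeded that in lactation by 1.01 (adjusted p = 0.62) and that in animals that were not pregnant by 0.66 (adjusted p = 0.893), so neither passed.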

How the results depend on the processing

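Direction held for all 37 called miRNAs under every alternative with a value, but their number did not. In place of 37 calls (13 higher, 24 lower in sheep), there were 19 with normexp background (6 and 13), 1 with the authors' deposited table (0 and 1; limma, 23 at an unadjusted p under 0.05), 57 with a floor 4 times lower (21 and 36), 15 with no filter (5 and 10), 60 with an additive model of species and stage class (25 and 35) and, added after seeing the data, 18 without miRNAs at the floor on 2 or more gestation arrays (6 and 12). Fitted alone, also added later, the other 5 arrays gave 17. Splits that moved in 1 direction were 21 higher and 11 lower with no scaling, 8 higher on slide 1 only, and 15 lower with gestation arrays only. Leaving out 1 array at a time gave 18 to 46 calls, 8 to 19 higher and 9 to 27 lower; leaving out either mouse lactation array removed that group's spread and gave 25. The 75 miRNAs apart, of 167 tested, became 35 of 92 with normexp and 36 of 159 with the authors' table. Without miRNAs at the floor on 2 or more gestation arrays they became 47 of 99. With 1 array left out they numbered 75 to 108, but fewer gestation arrays make it easier for the species to lie apart. The 7 shared brightest became 3 among the top 10, 15 among the top 30 and 7 to 9 with 1 array left out. Of the single miRNAs, differences kept direction and side of the threshold in 2005 fits, lost the call in 258, gained it in 103 and changed sign without a call in 45; median differences of lists moved by less than their spread in 234 fits and by more in 53. No paired analysis was possible because no label links a sheep array to a mouse array by animal or number. Signals near the floor have no order, and 1 array per day limits every comparison of days.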
